A study of Homo sapiens and Mus musculus with 10 samples.

Results

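The MS4A genes and their relatives TMEM176A and TMEM176B encode small proteins that cross the membrane several times. The 9 members described here are MS4A3, MS4A4A, MS4A6A, MS4A7, MS4A6B, MS4A6C, MS4A6D, TMEM176A and TMEM176B, taken from each gene table by symbol with letter case ignored. The human table listed 6 of them among 27800 gene symbols, the mouse table listed 8 among 24493, and 5 were listed in both. MS4A6B, MS4A6C and MS4A6D are mouse genes. The members were chosen by symbol once the WM-1119 and DMSO levels of these same libraries were known, so their differences between treatments are given as a description and support nothing by themselves.

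The study sequenced RNA in 10 libraries. MOLM-13, an established human leukaemia line of the acute myeloid type with a fused MLL gene, gave 3 libraries of cells with DMSO, the solvent control, and 3 of cells with 4 µM WM-1119 for 4 days. ER-Hoxa9, a mouse myeloid progenitor line held undifferentiated by an estrogen-controlled HOXA9, gave 2 libraries with DMSO and 2 with 2 µM WM-1119 for 4 days. WM-1119 inhibits the MYST histone acetyltransferase KAT6A, and the study asked what that inhibition does to the expression programme of leukaemia cells. All ER-Hoxa9 groups, controls included, grew with 0.5 µM β-estradiol and with medium conditioned by cells that secrete stem cell factor, the condition that keeps this HOXA9 active. The labels give no DMSO concentration.

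MS4A proteins sit at the plasma membrane or in endosomes, often beside a receptor whose signal or traffic they modify. The family includes the B cell antigen CD20, encoded by MS4A1, and the beta chain of the high-affinity IgE receptor, encoded by MS4A2 and made by mast cells and basophils. MS4A3 marks granulocyte-monocyte progenitors and binds the phosphatase CDKN3, a regulator of cell cycle kinases. MS4A4A, MS4A6A and MS4A7 are genes of monocytes, macrophages and microglia. MS4A4A acts with the fungal receptor dectin-1, and the MS4A4A and MS4A6A region is linked to the microglial receptor TREM2. The mouse genes Ms4a6b, Ms4a6c and Ms4a6d are relatives of human MS4A6A. TMEM176A and TMEM176B form cation channels of intracellular vesicles and serve antigen presentation on MHC class II in dendritic cells.

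The human members lie in 2 places of the genome. In GRCh38 with GENCODE release 29, 16 MS4A genes fill 744.7 kb of chromosome 11, from 60056587 to 60801305. MS4A3 opens the cluster on the forward strand (ENSG00000149516.13, chr11:60056587-60071128). MS4A6A lies on the reverse strand (ENSG00000110077.14, chr11:60172014-60184666) and MS4A4A begins next to it on the forward strand (ENSG00000110079.17, chr11:60185702-60317944), so that MS4A4E, on the reverse strand at chr11:60201253-60243088, falls inside the span of MS4A4A. That is the GENCODE span of MS4A4A. RefSeq starts MS4A4A just after chr11:60280665, inside that span and past MS4A4E, and this start is used for its sequence below. MS4A7 (ENSG00000166927.12, chr11:60378482-60395951) overlaps MS4A14 (chr11:60378530-60417756) on the same strand. TMEM176B (ENSG00000106565.17, chr7:150791285-150801360, reverse strand) and TMEM176A (ENSG00000002933.8, chr7:150800403-150805120, forward strand) lie head to head and overlap. Their RefSeq start sites are 405 and 591 bases apart, since TMEM176B has 2 of them. Mouse coordinates and mouse sequences were not used here.

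**Figure D1:**
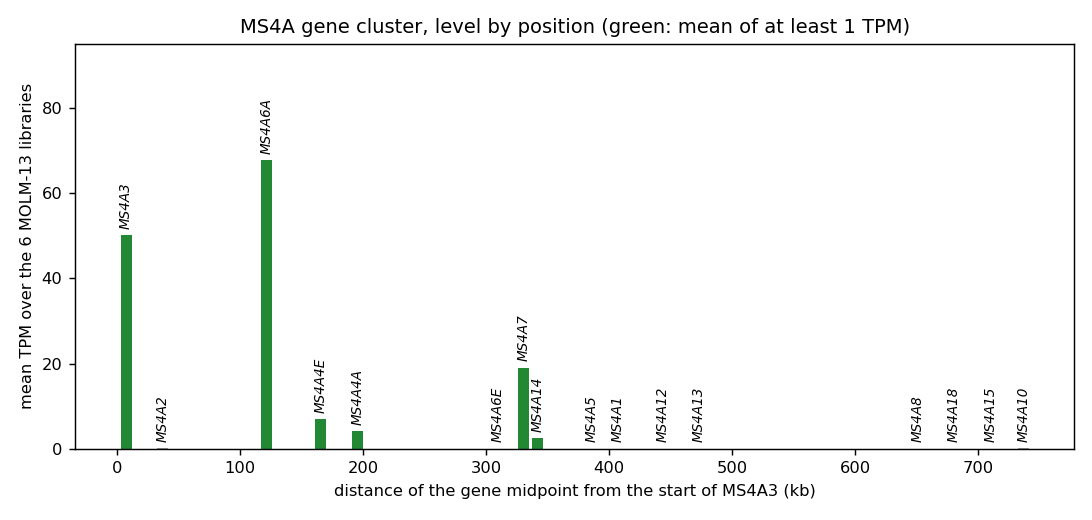
Mean TPM (a gene's length-scaled share of a library's transcripts) over the 6 MOLM-13 libraries for each of the 16 MS4A genes, against the distance of the gene's midpoint from the start of MS4A3 in kb, in GRCh38. Green bars mark the 6 genes whose mean reached 1 TPM, and all of them lie between MS4A3 and MS4A14.

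The 100 bases before the GENCODE span of 3 members are printed because they are the most abundant members of MOLM-13 and show which searched motifs lie close to their starts. Each line is from RefSeq on GRCh38.p14, read 5′ to 3′ on the gene's own strand, with matches to a searched motif in capitals. MS4A6A is at chr11:60184667-60184766 on the reverse strand, MS4A7 at chr11:60378382-60378481 and MS4A3 at chr11:60056487-60056586 on the forward strand.
MS4A6A: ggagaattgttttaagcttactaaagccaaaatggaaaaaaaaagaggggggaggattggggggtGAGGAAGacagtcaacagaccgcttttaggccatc
MS4A7: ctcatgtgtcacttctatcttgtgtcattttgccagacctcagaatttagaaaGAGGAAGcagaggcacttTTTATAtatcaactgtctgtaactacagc
MS4A3: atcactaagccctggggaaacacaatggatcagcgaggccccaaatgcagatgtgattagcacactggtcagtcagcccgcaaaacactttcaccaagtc
GAGGAAG is a core that ETS factors such as PU.1 bind, and the capitals TTTATA in MS4A7 are the TATA box letters TATAAA on the other strand. GAGGAAG lay 35 bases before the outermost MS4A6A start and 97 bases before the RefSeq start of MS4A7.

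The 250 bases before each RefSeq start were searched on both strands for 7 motifs, and the share of all 35116 such human windows with a match is the background. GAGGAAG was in 11.2% of all windows, GGAAGTG, another ETS core, in 9.28%, TATAAA in 10.7%, TGACTCA (AP-1) in 4.20%, AACCACA (RUNX) in 3.65%, and the C/EBP motifs TTGCAAT and TTGCGCAA in 1.69% and 0.131%. Beyond the matches printed above, the inner MS4A6A windows held TATAAA and GGAAGTG, MS4A4A held TATAAA 157 bases before its start, and the outer TMEM176B window held GAGGAAG 171 bases before its start. The MS4A6A windows with TATAAA and GGAAGTG lay inside the GENCODE span of that gene. The window with GGAAGTG overlapped GENCODE exons at 248 of its 250 bases. No searched motif matched in the windows of MS4A3 and TMEM176A, which says only that these letters are not in those windows. The windows also differed in base composition, with 27.6% to 46.4% G or C at the MS4A genes described here, against 73.2% at TMEM176A, 58.8% and 78.4% at TMEM176B and a median of 58.0% over all windows.

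MS4A4A and its neighbour MS4A4E are printed as a pair because the DNA before their starts is much alike. Before the starts of these genes, an aligned stretch of 121 bases was identical at 114 positions, or 94.2%, with the 7 differing bases in capitals. In GRCh38.p14 from RefSeq, MS4A4A is at chr11:60280416-60280536 on the forward strand and MS4A4E at chr11:60243138-60243258 on the reverse strand, both outside GENCODE exons.
MS4A4A: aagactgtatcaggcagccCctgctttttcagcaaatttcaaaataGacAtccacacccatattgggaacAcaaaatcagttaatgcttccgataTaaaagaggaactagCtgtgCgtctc
MS4A4E: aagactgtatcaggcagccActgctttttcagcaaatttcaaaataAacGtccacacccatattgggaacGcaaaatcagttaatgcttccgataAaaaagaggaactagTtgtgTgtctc
For the transcripts another measure was used, exact matches over 31 bases, so its shares cannot be set against the identity above. Of the 3027 distinct stretches of 31 bases of MS4A4A, 66 were found in transcripts of another gene, 53 of them in MS4A4E. The same search found 163 of 6040 stretches of MS4A6A shared, 156 of them with MS4A6E, and 258 of 4486 of MS4A7 shared, 105 of them with MS4A14. The shared stretches of MS4A7 were spread over transcripts of 1078 other genes. For TMEM176B 14 of 2025 were shared, and for MS4A3 and TMEM176A none were, of 2151 and 3661. Reads from the shared stretches could be assigned to any gene that holds them, so the levels of MS4A4A, MS4A6A and MS4A7 carry that uncertainty. The mouse genes Ms4a6b, Ms4a6c and Ms4a6d are paralogues whose shared stretches were not analysed here, and their separate levels are uncertain for the same reason.

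Levels are given in TPM, which scale for transcript length and add up to the same total in each library, so values of different genes within a library can be set side by side. TPM keep no sequencing depth, so the depth is unknown and no counting interval is given. Differences are given as WM-1119 minus DMSO on the scale of log2(TPM + 1), with the standard error (SE) of a linear model fitted to every gene whose mean over the line reached 1 TPM. That model did not use the replicate numbers, so in MOLM-13 its SE also holds the spread between replicates. The added 1 TPM makes such a difference smaller than the true log2 ratio for low genes. The labels do not say whether libraries came from separate cultures, so SDs and p-values measure only how far these libraries lie apart, and that spread may be technical. In bulk RNA, fewer cells of a type and less RNA per cell cannot be told apart.

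Most or all of the listed myeloid progenitor genes were present in each line. In MOLM-13, 13 of 15 listed myeloid progenitor genes reached the mean of 1 TPM, with the protease gene PRTN3 the most abundant at 5092 ± 2130 TPM (SD, n = 3) with DMSO. The genes of that list that did not were CD34, at 0 in all libraries, and KIT, at 0.281 ± 0.144 TPM with DMSO (SD, n = 3). In ER-Hoxa9 all 14 listed did, led by the protease gene Ctsg at 2529 ± 212 TPM (SD, n = 2). In limma 0 genes of these lists passed in either direction, with median log2 differences of 0.18 and 0.57. At an unadjusted p under 0.05 there, 1 and 7 were higher, as were 259 of all 12436 and 1322 of all 11362 genes tested. The medians over all genes were 0.05 and 0.12. Replicate 3 of MOLM-13 stood apart in both arms: ribosomal protein genes took 37.6% and 31.9% of its TPM with DMSO and WM-1119, against 24.1% to 26.8% in the other 4 libraries. The erythroid and megakaryocyte genes, of which the globin gene HBG2 was the most abundant, summed to 289 and 535 TPM in that replicate, against 0.341 to 1.19 TPM in the others. The MOLM-13 libraries with the same number deviated together, so values by same-numbered pair are also given. In ER-Hoxa9 the numbers entered only alternative fits with the replicate number as a block, and no values by pair are given.

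In MOLM-13 the macrophage-type member MS4A6A and the progenitor gene MS4A3 were the most abundant members, MS4A7 came next, MS4A4A was low and the TMEM176 pair was near 0. No member was separated by treatment. The DMSO order was MS4A6A at 62.0 ± 44.2 TPM (SD, n = 3), MS4A3 at 46.4 ± 28.8, MS4A7 at 17.7 ± 4.14, MS4A4A at 3.55 ± 0.957, TMEM176A at 0.488 ± 0.327 and TMEM176B at 0.458 ± 0.140. In that order the ranges of MS4A6A and MS4A3 overlapped, as did those of MS4A3 and MS4A7 and those of the TMEM176 pair. MS4A7 lay above MS4A4A, and MS4A4A above TMEM176A, in every DMSO library.

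**Figure D2:**
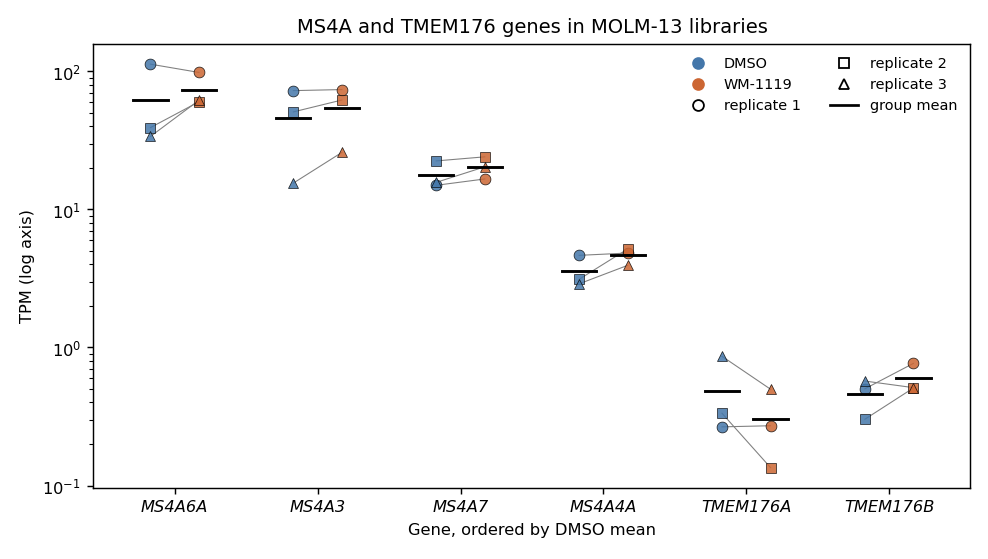
TPM on a log axis of the 6 members listed in MOLM-13, with DMSO in blue and WM-1119 in orange, 1 point per library, the shape giving the replicate number, thin lines joining same-numbered libraries and black bars the group means. The DMSO and WM-1119 points overlap for all 6 genes, and MS4A3 is lowest in replicate 3 of both arms, at 15.5 and 25.9 TPM.

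MS4A6A, which codes for a monocyte and macrophage membrane protein, was at 113, 39.2 and 33.8 TPM in DMSO replicates 1, 2 and 3, and at 98.4, 60.4 and 61.9 TPM in WM-1119 replicates 1, 2 and 3. Replicate 1 was the highest library of each arm, and the groups overlapped. The WM-1119 mean was 73.5 ± 21.5 TPM (SD, n = 3), or 1.19 times the DMSO mean, with a log2 difference of 0.42 ± 0.46 (SE). That difference was 0.96 without DMSO replicate 1 and 0.10 without DMSO replicate 3. By pair the log2 differences were -0.20, 0.61 and 0.85, so 2 of 3 pairs were higher with WM-1119.

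MS4A3, the progenitor gene whose protein binds CDKN3, was at 72.6, 50.9 and 15.5 TPM with DMSO and at 73.9, 62.1 and 25.9 TPM with WM-1119. Its DMSO libraries spread over a 4.68-fold range and its WM-1119 libraries over 2.85-fold, both with replicate 3 lowest. The WM-1119 mean was 54.0 ± 25.0 TPM (SD, n = 3), and the log2 difference was 0.34 ± 0.61 (SE). The pairs gave log2 differences of 0.02, 0.28 and 0.70, the last in replicate 3. With DMSO replicate 3 alone left out the difference was -0.30, with WM-1119 replicate 3 alone left out 0.79, and with the whole pair left out of a fit on pairs 0.15, so its size moved with that replicate while each pair stayed above 0.

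MS4A7, a macrophage and microglia gene, was at 15.0, 22.5 and 15.7 TPM with DMSO and at 16.6, 24.1 and 20.4 TPM with WM-1119. Replicate 2 was highest in both arms, and the groups overlapped although each pair was higher with WM-1119, by log2 differences of 0.14, 0.09 and 0.35. The means were 17.7 ± 4.14 and 20.4 ± 3.71 TPM (SD, n = 3 each), and the log2 difference was 0.20 ± 0.22 (SE). With single libraries left out it ran from 0.07, without WM-1119 replicate 2, to 0.37, without DMSO replicate 2.

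MS4A4A, the dectin-1 partner, was at 4.65, 3.12 and 2.89 TPM with DMSO and at 4.83, 5.17 and 3.94 TPM with WM-1119. The lowest WM-1119 library lay below the highest DMSO library, and each pair was higher with WM-1119, by log2 differences of 0.05, 0.58 and 0.34. The means were 3.55 ± 0.957 and 4.65 ± 0.639 TPM (SD, n = 3 each), and the log2 difference was 0.32 ± 0.21 (SE), which was 0.49 without DMSO replicate 1.

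The vesicle channel genes were hardly present in MOLM-13. TMEM176A was at 0.266, 0.334 and 0.863 TPM with DMSO and at 0.271, 0.135 and 0.498 TPM with WM-1119. TMEM176B was at 0.502, 0.302 and 0.571 TPM with DMSO and at 0.768, 0.509 and 0.512 TPM with WM-1119. Both means were under 1 TPM, so neither gene entered the model, and in both the groups overlapped.

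Of the 4 members tested in MOLM-13, 0 passed a Benjamini-Hochberg adjusted p of 0.05 in limma, with an adjusted p of 0.99999 for each, and 0 were under an unadjusted p of 0.05. Over all 12436 genes tested, 0% were called higher and 0.00804% lower, the latter being the single entry MIR191, while 259 genes were higher and 120 lower at an unadjusted p under 0.05. With the replicate number as a block the members' adjusted p in limma lay between 0.299 and 0.366, and over all genes 0% were called higher and 0% lower, with 1645 higher and 611 lower at an unadjusted p under 0.05. In that block fit the SEs of the log2 differences were 0.14 for MS4A3, 0.14 for MS4A4A, 0.21 for MS4A6A and 0.08 for MS4A7. All 4 members had a log2 difference above 0, as did 61.5% of all genes tested. In 3 of the 4 every pair was higher with WM-1119, as in 28.6% of all genes. In 0 of the 4 did every WM-1119 library lie above every DMSO library, which held for 4.54% of all genes. The members' median log2 difference was 0.33, against a median of 0.05 over all genes and a 5th to 95th percentile range of -0.34 to 0.47, and each member lay inside that range.

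Without replicate 3, in the fit on the remaining pairs, the log2 differences were 0.15 for MS4A3, 0.31 for MS4A4A, 0.21 for MS4A6A and 0.12 for MS4A7, beside a median of 0.03 over all genes. Those of MS4A3, MS4A6A and MS4A7 were then smaller by over 1.5 times than with all libraries. The part of the globin and ribosomal protein levels of that replicate in the values was not tested.

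The other MS4A genes of the cluster were mostly at or near 0 in MOLM-13. Of 12 listed, 7 were at 0 in all 6 libraries, among them the CD20 gene MS4A1 and MS4A6E, and MS4A15 was at 0 in all but WM-1119 replicate 3. MS4A2, the IgE receptor chain, did not exceed 0.166 TPM, and MS4A10 was at 0.222 ± 0.178 TPM with DMSO and 0.169 ± 0.0858 TPM with WM-1119 (SD, n = 3 each). MS4A4E, which lies within the span of MS4A4A, was at 8.67, 4.31 and 7.79 TPM with DMSO and at 4.66, 7.18 and 9.13 TPM with WM-1119, higher than MS4A4A in all libraries but WM-1119 replicate 1. MS4A14 was at 1.71, 3.28 and 1.99 TPM with DMSO and at 2.10, 3.34 and 2.52 TPM with WM-1119. In both of these the groups overlapped.

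All MS4A genes together came to 216, 124 and 77.8 TPM in the MOLM-13 DMSO libraries and to 201, 163 and 124 TPM in the WM-1119 libraries. MS4A6A supplied 31.7% to 52.3% of that sum over the 6 libraries and MS4A3 20.0% to 41.2%. The ratio of MS4A6A to MS4A3 was 1.56, 0.769 and 2.18 with DMSO and 1.33, 0.972 and 2.39 with WM-1119. MS4A3 was thus the higher of the pair in replicate 2 of both arms, and MS4A6A in replicates 1 and 3 of both arms.

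In ER-Hoxa9 the order was different: the vesicle channel genes led, followed by Ms4a6c and Ms4a3, with Ms4a6b and Ms4a6d below them. With DMSO, Tmem176b was at 46.8 ± 0.0765 TPM (SD, n = 2), Tmem176a at 22.0 ± 1.40, Ms4a6c at 7.24 ± 1.54, Ms4a3 at 4.17 ± 4.06, Ms4a6b at 1.87 ± 1.11, Ms4a6d at 1.67 ± 0.694, Ms4a7 at 0.324 ± 0.248 and Ms4a4a at 0.192 ± 0.0168. Tmem176b lay above Tmem176a, Tmem176a above Ms4a6c, and Ms4a6d above Ms4a7 in both DMSO libraries. Ms4a6c, Ms4a3, Ms4a6b and Ms4a6d overlapped each with the next in the order, as did Ms4a7 and Ms4a4a. In 7 of the 8 listed members, all but Ms4a3, both WM-1119 libraries lay above both DMSO libraries, as they did in 40.3% of the genes tested. Of those 7, Ms4a4a and Ms4a7 had means under 1 TPM and are not among the genes tested.

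**Figure D3:**
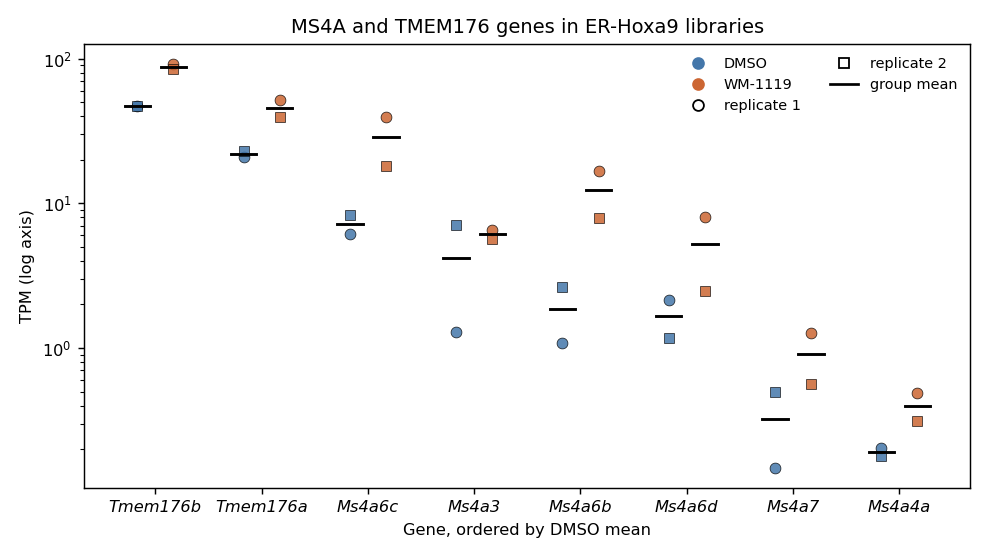
TPM on a log axis of the 8 members listed in ER-Hoxa9, with DMSO in blue and WM-1119 in orange, 1 point per library and black bars for group means. Both WM-1119 points lie above both DMSO points in 7 of the 8 genes, as in 40.3% of all genes tested, of which Ms4a4a and Ms4a7 are not part, and in Ms4a3 the groups overlap.

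Tmem176b, a subunit of the vesicle cation channels, was at 46.7 and 46.8 TPM in DMSO replicates 1 and 2 and at 91.6 and 84.5 TPM in WM-1119 replicates 1 and 2. The libraries of each arm lay close together and the arms did not overlap. The WM-1119 mean was 88.1 ± 5.03 TPM (SD, n = 2), 1.88 times the DMSO mean, with a log2 difference of 0.90 ± 0.11 (SE).

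Tmem176a, its partner gene, was at 21.0 and 23.0 TPM with DMSO and at 51.6 and 39.5 TPM with WM-1119, again without overlap. The WM-1119 mean was 45.6 ± 8.57 TPM (SD, n = 2), 2.07 times the DMSO mean, with a log2 difference of 1.01 ± 0.16 (SE). The level of Tmem176b was 2.22 and 2.04 times that of Tmem176a with DMSO and 1.78 and 2.14 times with WM-1119, so the ratio of the pair overlapped between the arms.

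Ms4a6c, the most abundant Ms4a gene of the line, was at 6.15 and 8.32 TPM with DMSO and at 39.3 and 18.2 TPM with WM-1119. The arms did not overlap, and WM-1119 replicate 1 held 2.16 times the level of replicate 2. The WM-1119 mean was 28.8 ± 14.9 TPM (SD, n = 2), 3.97 times the DMSO mean, with a log2 difference of 1.77 ± 0.37 (SE).

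Ms4a6b was at 1.08 and 2.65 TPM with DMSO and at 16.9 and 7.89 TPM with WM-1119. It had the largest ratio of means of the members, 6.63, from 1.87 ± 1.11 to 12.4 ± 6.34 TPM (SD, n = 2 each), and a log2 difference of 2.19 ± 0.43 (SE). Counted from the largest log2 difference down, it stood at position 12 of the 11362 genes tested and Ms4a6c at position 26.

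Ms4a6d was at 2.16 and 1.18 TPM with DMSO and at 8.01 and 2.47 TPM with WM-1119. WM-1119 replicate 2 lay only a little above the higher DMSO library. The means were 1.67 ± 0.694 and 5.24 ± 3.92 TPM (SD, n = 2 each), and the log2 difference of 1.09 ± 0.49 (SE) was 0.40 without WM-1119 replicate 1 and 1.78 without WM-1119 replicate 2.

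Ms4a3 was at 1.30 and 7.04 TPM with DMSO and at 6.51 and 5.69 TPM with WM-1119. The DMSO libraries differed 5.41-fold from each other and enclosed both WM-1119 libraries. The log2 difference of 0.72 ± 0.59 (SE) was -0.18 without DMSO replicate 1 and 1.62 without DMSO replicate 2, so for this gene the direction rests on the DMSO libraries.

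The macrophage genes Ms4a4a and Ms4a7 were low in the mouse line. Ms4a4a was at 0.204 and 0.180 TPM with DMSO and at 0.489 and 0.312 TPM with WM-1119. Ms4a7 was at 0.149 and 0.499 TPM with DMSO and at 1.27 and 0.560 TPM with WM-1119. Both lay higher in both WM-1119 libraries, and both were under the mean of 1 TPM that the model required.

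**Figure D4:**
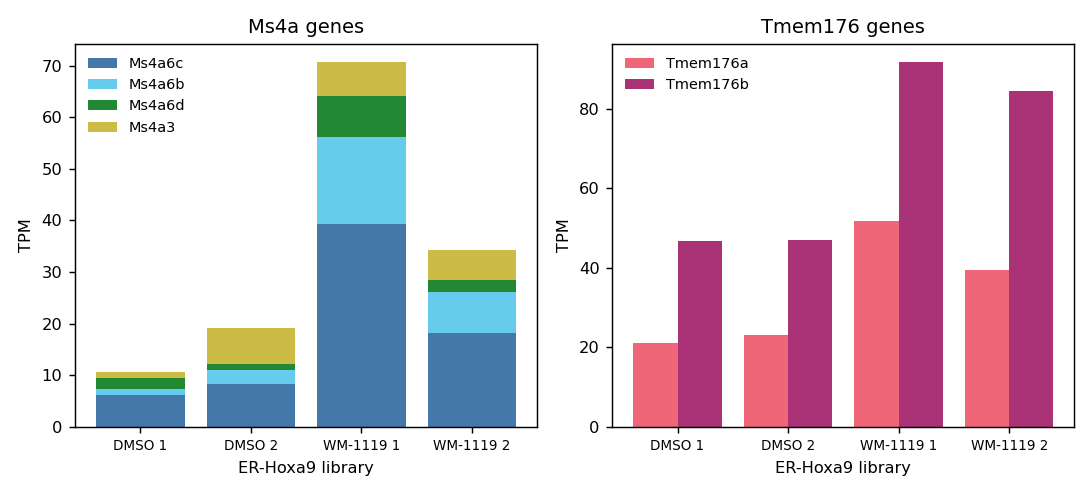
TPM in each ER-Hoxa9 library, on linear axes from 0, with Ms4a6c, Ms4a6b, Ms4a6d and Ms4a3 stacked on the left and Tmem176a and Tmem176b side by side on the right. The Ms4a6 genes are highest in WM-1119 replicate 1, where they sum to 64.2 TPM. In WM-1119 replicates 1 and 2 Tmem176b is at 91.6 and 84.5 TPM and Tmem176a at 51.6 and 39.5 TPM.

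All Ms4a genes together came to 11.3 and 20.6 TPM in the ER-Hoxa9 DMSO libraries and to 73.8 and 36.6 TPM in the WM-1119 libraries. Ms4a6b, Ms4a6c and Ms4a6d summed to 9.39 and 12.2 TPM with DMSO and to 64.2 and 28.5 TPM with WM-1119. They made up 82.9% and 59.1% of the family's TPM with DMSO and 87.0% and 78.0% with WM-1119. Ms4a6c was 5.70 and 3.14 times as high as Ms4a6b with DMSO and 2.33 and 2.30 times with WM-1119. Of the 11 other listed Ms4a genes none reached a mean of 1 TPM and 5 were at 0 in all 4 libraries, the CD20 gene Ms4a1 among them. The most abundant of them with WM-1119 were Ms4a4d at 0.404 ± 0.223 TPM, Ms4a4c at 0.336 ± 0.0407, Ms4a4b at 0.246 ± 0.241 and the IgE receptor gene Ms4a2 at 0.236 ± 0.0998 (SD, n = 2 each). With DMSO these 4 were at 0.0741 ± 0.105, 0.0544 ± 0.0769, 0.0300 ± 0.0424 and 0.178 ± 0.114 TPM.

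Of the 6 members tested in ER-Hoxa9, 0 passed an adjusted p of 0.05 in limma. The adjusted p ran from 0.185 for Tmem176b to 0.616 for Ms4a3, and 4 of the 6 were under an unadjusted p of 0.05. Over all 11362 genes tested, 0.0176% were called higher, Apoo-ps and Mir1955, and 0.0176% lower, Mir7050 and Mirlet7i, while 1322 were higher and 128 lower at an unadjusted p under 0.05. After median-of-ratios scaling the calls were 1 higher and 2 lower. With the replicate block the members' adjusted p in limma ran from 0.168 to 0.469, and over all genes 0% were called higher and 0% lower, with 1761 higher and 273 lower at an unadjusted p under 0.05. Both WM-1119 libraries lay above both DMSO libraries in 5 of the 6 tested members, as in 40.3% of all genes tested. All 6 had a log2 difference above 0, as did 71.9% of all genes.

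The median log2 difference of the 6 members was 1.05, against 0.12 over all genes and a 5th to 95th percentile range of -0.26 to 0.72. Ms4a6b, Ms4a6c, Ms4a6d, Tmem176a and Tmem176b lay above that range, and Ms4a3 only just above its upper end. Median-of-ratios scaling, which sets libraries on the scale of their typical gene, moved the median over all genes from 0.12 to -0.01. Under it the log2 differences were 2.08 for Ms4a6b, 1.63 for Ms4a6c, 0.98 for Ms4a6d, 0.86 for Tmem176a, 0.75 for Tmem176b and 0.61 for Ms4a3.

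**Figure D5:**
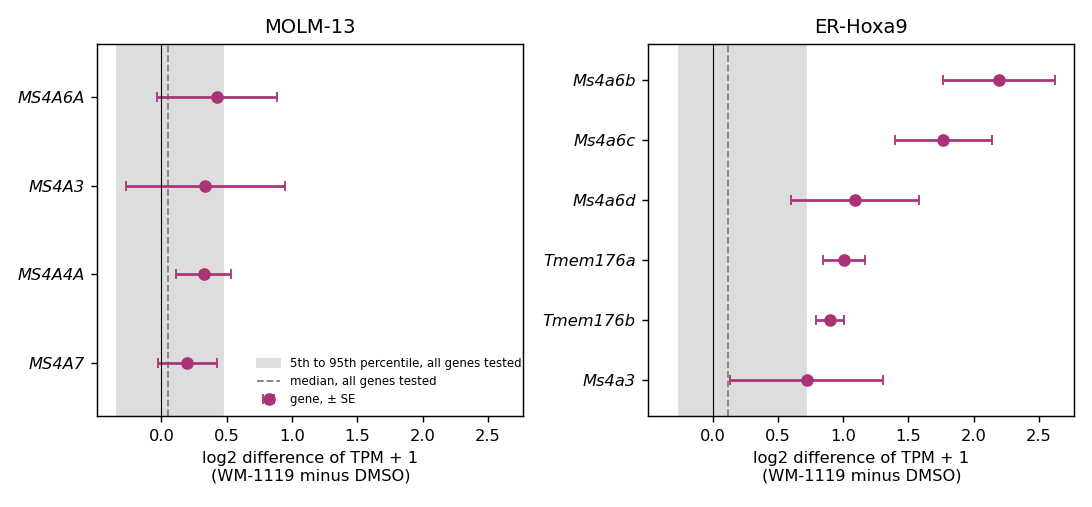
Log2 difference of TPM + 1, WM-1119 minus DMSO, for the tested members of each line, with points for the fitted value and bars for its SE, the grey band for the 5th to 95th percentile of all genes tested and the dashed line for their median. The SE is that of the fit without the replicate block. In MOLM-13 all 4 members lie within the band, and in ER-Hoxa9 Ms4a6b at 2.19 and Ms4a6c at 1.77 lie farthest above it.

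WM-1119 replicate 1 of ER-Hoxa9 was the library in which the Ms4a6 genes were highest, and other myeloid genes were high in it too. The listed eosinophil genes summed to 496 TPM there and to 147 to 226 TPM in the other 3 libraries, and the neutrophil genes to 350 TPM against 157 to 251 TPM. The most abundant of these were the granule gene Prg3, at 94.3 ± 11.9 TPM with DMSO and 169 ± 144 TPM with WM-1119, and Lcn2, at 177 ± 55.6 and 176 ± 120 TPM (SD, n = 2 each). Of these lists, Ear1, Ear2, Ear6 and Ly6g were at 0 in all 4 libraries. Without that library the log2 differences were 1.69 for Ms4a6b, 1.23 for Ms4a6c, 0.40 for Ms4a6d, 0.82 for Tmem176a, 0.84 for Tmem176b and 0.64 for Ms4a3. The part of those granulocyte genes in the members' levels was not tested.

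Markers of cells that use these members were read in the same libraries. The background for this and the later lists is that over all genes tested. In MOLM-13 61.5% of 12436 genes had a log2 difference above 0, with a median of 0.05. There 259 were higher and 120 lower at an unadjusted p under 0.05 in limma. In ER-Hoxa9 71.9% of 11362 genes were above 0, with a median of 0.12, and 1322 were higher and 128 lower. The 28 listed human monocyte and macrophage genes summed to 2692, 2154 and 1266 TPM in the MOLM-13 DMSO libraries and to 4205, 3723 and 3036 TPM in the WM-1119 libraries, led by the lysozyme gene LYZ at 1347 ± 689 and 2759 ± 612 TPM (SD, n = 3 each). Of these, 16 were tested, 0 passed in limma in either direction, with 5 higher and 1 lower at an unadjusted p under 0.05, and 14 had a log2 difference above 0, with a median of 0.41. The complement gene C1QB was at 0 in all 6 libraries. In ER-Hoxa9 the 31 listed summed to 193 and 229 TPM with DMSO and to 288 and 260 TPM with WM-1119, 15 were tested, 0 passed, 9 were higher at an unadjusted p under 0.05, 13 were above 0 and the median was 0.88. C1qa, Lyz2 and Marco were at 0 in all 4 libraries. The most abundant of them, the chemokine receptor gene Ccr2, was at 86.9 ± 21.3 TPM with DMSO and 79.9 ± 2.46 TPM with WM-1119 (SD, n = 2 each).

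The remaining marker lists of MOLM-13 were led by single abundant genes. Over all genes tested there, 61.5% had a log2 difference above 0 and the median was 0.05. Neutrophil genes, led by the integrin gene ITGB2, summed to 244 to 347 TPM with DMSO and 348 to 390 TPM with WM-1119. ITGB2 alone was at 249 ± 52.1 and 306 ± 20.6 TPM (SD, n = 3 each), so it made up most of these sums. LCN2 and OLFM4 of that list were at 0 in all 6 libraries, and LTF and MMP8 did not exceed 0.0213 TPM. Of the 13 listed, 5 were tested, and 5 of 5 had a log2 difference above 0, with a median of 0.78. Eosinophil genes, led by RNASE2, summed to 400 to 1062 and 831 to 1324 TPM, with 4 of 4 above 0 and a median of 0.39. T and NK cell genes, led by CD4, which monocytic cells also make, summed to 212 to 299 and 258 to 316 TPM, with 2 of 3 above 0 and a median of 0.29. The erythroid and megakaryocyte genes tested were 5 globin genes, which did not exceed 0.587 TPM outside replicate 3 and reached the mean of 1 TPM only through it. All 5 were above 0, with a median of 0.40 but SEs of 1.20 to 2.47, and the sums are given above. The mean of the globin gene HBB was 17.4 TPM with DMSO and 16.5 TPM with WM-1119. The lists with a median below 0 were basophil and mast cell genes, led by GATA2 (20.3 to 49.4 and 17.6 to 33.6 TPM, 0 of 2 above 0, median -0.36), B cell genes, led by IGLL1 (3.09 to 22.0 and 4.45 to 9.72 TPM, 1 of 2, median -0.25), and dendritic cell genes, led by ITGAX (14.0 to 53.7 and 17.3 to 38.4 TPM, 2 of 4, median -0.16). In limma 0 genes of these 7 lists passed in either direction, and 1, a neutrophil gene, was higher at an unadjusted p under 0.05.

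In ER-Hoxa9 the B cell genes, led by the pre-B receptor gene Igll1, summed to 72.3 and 137 TPM with DMSO and 144 and 228 TPM with WM-1119, and 4 of 4 tested had a log2 difference above 0, with a median of 1.00. Erythroid and megakaryocyte genes, led by the platelet gene Gp9, summed to 25.3 and 48.9 against 63.0 and 54.7 TPM, with 4 of 6 above 0 and a median of 0.70. Neutrophil genes had 5 of 6 above 0 and a median of 0.66, and eosinophil genes 3 of 4 and a median of 0.50. Dendritic cell genes, of which only Itgax was tested, summed to 3.11 to 3.32 and 3.98 to 4.57 TPM, with a log2 difference of 0.31. T and NK cell genes, led by Nkg7, summed to 9.87 to 17.7 and 15.1 to 17.6 TPM, with 1 of 2 above 0 and a median of 0.27. Basophil and mast cell genes, led by the carboxypeptidase gene Cpa3, summed to 727 and 458 against 688 and 245 TPM, with 1 of 4 above 0 and a median of -0.11. In limma 0 genes of these 7 lists passed in either direction, and at most 2 of a list were higher at an unadjusted p under 0.05. Over all genes tested in this line, 71.9% had a log2 difference above 0 and the median was 0.12.

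The genes whose products work with the members were taken from a list of reported partners. As background, 61.5% of all genes tested in MOLM-13 and 71.9% in ER-Hoxa9 had a log2 difference above 0, with medians of 0.05 and 0.12. In MOLM-13, 8 of 12 listed were tested, 0 passed in limma in either direction, 1 was higher at an unadjusted p under 0.05, 8 had a log2 difference above 0 and the median was 0.28. TYROBP, the signalling adaptor of TREM2 and the most abundant partner there, was at 399 ± 107 TPM with DMSO and 530 ± 205 TPM with WM-1119 (SD, n = 3 each), with overlap. In ER-Hoxa9, 10 of 13 were tested, 0 passed, 3 were higher at an unadjusted p under 0.05, 9 were above 0 and the median was 0.48. Fcer1g, the shared gamma chain of Fc receptors and the most abundant partner in that line, was at 690 ± 100 and 633 ± 76.3 TPM (SD, n = 2 each), with overlap.

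A few more partners are named for their tie to a member, outside the rule for named genes and after their values were seen. CDKN3, the partner of MS4A3, was at 28.0 ± 10.8 and 32.8 ± 6.10 TPM in MOLM-13, and at 26.8 and 31.9 TPM against 59.6 and 36.0 TPM in the ER-Hoxa9 libraries. CLEC7A, which encodes dectin-1, the partner of MS4A4A, was at 0.357 ± 0.226 and 0.496 ± 0.139 TPM in MOLM-13 and at 0.925 and 1.30 against 3.23 and 1.49 TPM in ER-Hoxa9. TREM2 was at 10.6 ± 1.67 and 12.3 ± 2.80 TPM in MOLM-13 and its mouse gene was at 0 in all 4 libraries. The dectin-1 gene was thus nearly absent where MS4A4A was present, in MOLM-13, while Clec7a exceeded Ms4a4a in ER-Hoxa9. Trem2 was at 0 in ER-Hoxa9, where Ms4a4a was near 0 but Ms4a6c was at 7.24 TPM with DMSO and 28.8 TPM with WM-1119. Whether levels of partners and members go together was not tested.

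MHC class II presentation, the process that TMEM176A and TMEM176B serve in dendritic cells, was represented unequally in the lines. The shares over all genes tested were again 61.5% above 0 with a median of 0.05 in MOLM-13, and 71.9% and 0.12 in ER-Hoxa9. In MOLM-13, where the TMEM176 pair was near 0, 8 of 13 listed genes were tested, 0 passed in limma in either direction, 2 were higher at an unadjusted p under 0.05, 7 had a log2 difference above 0 and the median was 0.37. CD74, the invariant chain and the most abundant, was at 344, 301 and 392 TPM with DMSO and at 587, 533 and 725 TPM with WM-1119, without overlap. Every WM-1119 library lay above every DMSO library in 4.54% of all genes tested in MOLM-13. In ER-Hoxa9, where the Tmem176 pair led the members, Cd74 was at 0.214 ± 0.0645 and 0.194 ± 0.164 TPM (SD, n = 2 each). There 5 of 11 listed genes were tested, 0 passed, 4 were higher at an unadjusted p under 0.05, 5 were above 0 and the median was 0.73. The most abundant was the peptide editor gene H2-DMb1, at 25.0 and 25.5 TPM with DMSO and at 48.5 and 37.2 TPM with WM-1119, without overlap. Both WM-1119 libraries lay above both DMSO libraries in 40.3% of all genes tested in ER-Hoxa9.

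The 2 lines are tables of different species fitted separately, and the difference between them was not tested. Set side by side, Tmem176b was at 46.8 TPM with DMSO in ER-Hoxa9 and TMEM176B at 0.458 TPM in MOLM-13. For MS4A3 the DMSO means were 46.4 TPM in MOLM-13 and 4.17 TPM in ER-Hoxa9, for MS4A7 17.7 and 0.324 TPM, and for MS4A4A 3.55 and 0.192 TPM.

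Genes near the human clusters were read as neighbours, the 3 nearest with a mean of at least 1 TPM on each side. Around the MS4A cluster these were PATL1, STX3 and MRPL16 before it and CCDC86, PRPF19 and TMEM109 after it. STX3, a membrane fusion syntaxin, was at 4.61 ± 0.749 TPM with DMSO and 6.47 ± 1.17 TPM with WM-1119 (SD, n = 3 each) without overlap, and in the other 5 the groups overlapped. Around the TMEM176 pair they were LINC00996, GIMAP6 and GIMAP2 before it and AOC1, ABCB8 and CDK5 after it. AOC1, a diamine oxidase gene 47.0 kb after the pair, was at 5.16, 3.34 and 2.07 TPM with DMSO and at 14.0, 9.15 and 12.4 TPM with WM-1119, without overlap, and its log2 difference of 1.55 ± 0.29 (SE) had an adjusted p of 0.586 in limma. GIMAP6, a lymphoid GTPase gene, was at 3.69 ± 0.154 and 5.51 ± 0.563 TPM (SD, n = 3 each), also without overlap, and the other 4 overlapped. None of these 12 neighbours passed the adjusted p of 0.05 in limma. Separation like that of STX3, AOC1 and GIMAP6, every WM-1119 library above every DMSO library, held for 4.54% of all genes tested in MOLM-13.

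The genes most like a member across libraries were found by the Euclidean distance between log2(TPM + 1) values centred on each gene's mean. That distance grows with unlike pattern and with unlike size of change, and it says nothing of shared function. Across the 4 ER-Hoxa9 libraries the 5 genes nearest to Ms4a6c were the macrophage elastase gene Mmp12 at a distance of 0.204, the histidine decarboxylase gene Hdc at 0.218, Tdrd5 at 0.448, Inhbb at 0.457 and Ebi3 at 0.488, among 8715 candidates with a median distance of 1.83. Of the other members, Ms4a6b came at position 7, with a distance of 0.525, Tmem176a at position 51, Tmem176b at position 145 and Ms4a3 at position 1239. Ms4a6d, Ms4a7 and Ms4a4a, too low to be candidates, lay at distances of 0.963, 1.30 and 1.69 from Ms4a6c. Mmp12 was at 1.77 TPM with DMSO and 9.62 TPM with WM-1119 on average, and Hdc at 2.13 and 9.10 TPM. The 5 nearest to Tmem176b were Akr1c13 at 0.0955, Myo7a at 0.118, Napsa at 0.137, Adgrg7 at 0.139 and Asah2 at 0.139, with Tmem176a at position 28. Ms4a6c at position 8139, Ms4a3 at 8481 and Ms4a6b at 8632 were farther from Tmem176b than the median distance of 0.817. So was Ms4a6d, at a distance of 0.989, while Ms4a7 at 0.553 and Ms4a4a at 0.670 were nearer. The Pearson correlations with Tmem176b, which leave out the size of change, were 0.94 for Ms4a6c, 0.50 for Ms4a3, 0.95 for Ms4a6b and 0.78 for Ms4a6d.

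Across the 6 MOLM-13 libraries the 5 genes nearest to MS4A6A were CRELD2 at 0.287, MANF at 0.341, TEDC2 at 0.342, LRRC20 at 0.412 and SGK3 at 0.417, among 8802 candidates with a median of 1.27. CRELD2 and MANF code for proteins of the endoplasmic reticulum stress response. Of the other members MS4A4A, at a distance of 1.07, was nearer to MS4A6A than that median. MS4A3, at position 5650, MS4A7, at position 7944, TMEM176A, at a distance of 1.91, and TMEM176B, at 1.40, were farther. The Pearson correlations with MS4A6A were 0.83 for MS4A4A, 0.72 for MS4A3, -0.37 for MS4A7, -0.60 for TMEM176A and 0.48 for TMEM176B. For TMEM176B, whose values ranged over only 0.44 on this scale, the nearest were TBKBP1, DGKQ, MROH6, RANBP6 and CCDC90B, at 0.0900 to 0.122. Libraries of a line share their treatment arms, and these likenesses are descriptions over 4 and 6 libraries.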

How the data were processed

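RNA was sequenced from MOLM-13 and ER-Hoxa9 cells, and the authors deposited 1 table per line of TPM per gene symbol. Per the submitters' processing notes, Salmon estimated the TPM, and the builds named are hg38 and mm10. The version of Salmon and the annotation were not given in the sources used here. The labels' cell line and treatment set the groups. Mouse columns are headed with another line name than the labels have, and were taken as ER-Hoxa9 because it is the only mouse line labelled, and 0 columns stayed unassigned. MicroRNA entries took 13.2% to 22.0% of TPM in MOLM-13 and 7.53% to 11.0% in ER-Hoxa9, which lowers all other TPM of a library by that share. Between 12112 and 12416 genes in MOLM-13 and between 11042 and 11446 in ER-Hoxa9 reached 1 TPM in a library.

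The lines were fitted separately with limma 3.58.1 in R 4.3.3 (lmFit, then eBayes with trend), on log2(TPM + 1) of genes whose mean reached 1 TPM and without a replicate block. A gene was called at an adjusted p under 0.05 (Benjamini-Hochberg over all genes tested, two-sided). The script was tested on simulated data. The members, gene lists, motifs and the rule for named genes were chosen with earlier results of these data known. That rule named all members, other MS4A genes whose mean reached 0.1 TPM, the most abundant tested gene of each list where none was called, the 5 genes nearest in pattern and the 3 nearest expressed neighbours on each side. The lists are other MS4A genes, reported partners, MHC class II presentation, myeloid progenitor identity, and markers of monocytes and macrophages, neutrophils, basophils and mast cells, eosinophils, B cells, dendritic cells, T and NK cells, and erythroid cells and megakaryocytes. Alternatives were other pseudocounts, filters and scalings, a replicate block and each library left out. In MOLM-13 the deviations of same-numbered libraries from their group means correlated at 0.52, 0.44 and 0.61, so the numbers pair the libraries. In ER-Hoxa9 the value was 0.21 with 2 pairs. With 2 libraries per arm the other matching gives -0.21 by construction, so whether these numbers pair the libraries stayed unknown. Sequences and start sites came from RefSeq on GRCh38.p14, gene spans and shared transcript stretches from GENCODE release 29 on GRCh38. Python 3.11.15 with matplotlib 3.10.9 drew the figures.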

Additional observations from a re-analysis of the deposited data

How the results depend on the processing

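No member passed an adjusted p of 0.05 in limma under any alternative run, and 0 of 696 list counts under the alternatives were above 0. The members' log2 differences kept their direction except for MS4A3 in MOLM-13, at -0.30 without DMSO replicate 3 (range over single libraries left out -0.30 to 0.79), and Ms4a3 in ER-Hoxa9, at -0.18 without DMSO replicate 1 (-0.18 to 1.62). The pseudocount changed the size for low genes: Ms4a6b ran from 1.30 with 5 TPM to 2.69 with 0.1 TPM, and Ms4a6d from 0.57 to 1.42.

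Counts over all genes were small. In MOLM-13 the count called higher, 0, was the same in 14 of 17 alternatives. The count called lower, 1, became 0 with a pseudocount of 5 TPM, with no filter and with the replicate block, and with single libraries left out it ran from 0 to 5, while the count called higher ran from 0 to 1. Alternatives chosen after seeing the data, the block with median-of-ratios scaling and the block without replicate 1, 2 or 3, gave 0 called lower. In ER-Hoxa9 the counts called higher and lower, 2 each, became 0 and 0 with a pseudocount of 0.1 TPM, with no filter, with a filter at 5 TPM, with the block alone and with the block plus median-of-ratios scaling, and 1 and 1 with a pseudocount of 5 TPM and with microRNA entries removed. Median-of-ratios scaling gave 1 higher. With single libraries left out both ran from 0 to 0, and the lone library of an arm was then assumed to vary like the other arm. The causes were not tested. The replicate block changed no other call. TPM keep no depth, so what depth limits could not be set.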
